A study of Mus musculus with 9 samples.

Results

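The transcriptome of the main olfactory epithelium was compared between mice that lack Ms4a6c and wild-type mice, 6 of the 9 mice sequenced in the series. The Ms4a6c knockout mice were C57BL/6 animals of genotype Ms4a6c-/- from a line that the KOMP mutant mouse program made by homologous recombination, and the wild-type mice were C57BL/6 littermates, with 3 mice in each group, all between 8 and 12 weeks old. From which knockout line the wild-type littermates came, and from which strain the embryonic stem cells of the Ms4a6c line came, is not given in the sources used here. The other 3 mice carried a deletion of the whole Ms4a gene cluster and entered the fit to share the estimate of spread. All genes with at least 10 expected counts summed over the 9 mice were examined, 23225 of the 55291 genes quantified, and every gene that differed between the Ms4a6c knockout and wild-type mice is described here.

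The olfactory epithelium lines part of the nasal cavity. Mature olfactory sensory neurons detect odorants through G protein-coupled odorant receptors, the G protein alpha subunit Gnal, adenylyl cyclase Adcy3 and a cyclic nucleotide-gated channel. Sustentacular cells surround these neurons and hold large amounts of cytochrome P450 enzymes that break down inhaled chemicals, and basal cells replace lost neurons. Ms4a proteins are membrane proteins with 4 membrane spans that were described as odour detectors of necklace neurons, a sparse class of sensory neurons in the recesses of the epithelium, and Ms4a genes are also active in macrophages and other blood cells. A retrocopy is a copy of a gene made by reverse transcription of its mRNA and insertion elsewhere in the genome. It lacks introns, and a recent one differs from the parent at few bases. Some retrocopies differ in presence between mouse strains and lines.

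Levels are given as CPM, the count of a gene relative to the library total after trimmed-mean scaling. The expected counts of the 6 mice summed to between 13954591 and 21987174. Wild-type mouse 1 stood apart: transcripts of nasal glands summed to 318500 CPM in it, against 20830 and 19030 CPM in the other wild-type mice and 20070, 51720 and 18220 CPM in the knockout mice. Xist and Y-linked transcripts placed 1 male (mouse 1) and 2 female mice in the wild-type group. They placed 1 female (mouse 1) and 2 male mice in the knockout group. Leaving out wild-type mouse 1 therefore removed both the gland-rich library and the only male of its group. Leaving out knockout mouse 1 removed the only female of its group. The olfactory marker Omp was at 4501, 5152 and 4915 CPM in the wild-type mice and at 4824, 5212 and 5019 CPM in the knockout mice, so the labelled tissue was present in every library. In whole tissue, fewer cells of a type and less RNA per cell cannot be told apart.

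Ms4a6c itself, at chr19:11469366-11482192 (GRCm38, plus strand), was almost absent from the knockout mice. Its level was 3.84, 4.99 and 4.67 CPM in the wild-type mice and 0, 0.124 and 0.127 CPM in the Ms4a6c knockout mice. All 3 knockout mice lay far below all 3 wild-type mice, with 4 counts in the knockout group against 226 in the wild-type group, a ratio of 63.9 with a 95% counting interval of 24.6 to 237. The fitted log2 fold change was -5.81 ± 0.57 (SE, n = 3 against 3; edgeR's quasi-likelihood test, adjusted p = 0.00342). The gene passed in all 16 alternative fits. Neither Ms4a6b nor Ms4a6d, the related family members with over 90% identity to it, passed the test. Ms4a6b stood at 2.56, 3.66 and 3.13 CPM in the wild-type mice and 1.52, 1.3 and 2.17 CPM in the knockout mice, which do not overlap, with a log2 fold change of -0.91 ± 0.29 (edgeR's adjusted p = 0.302). Ms4a6d stood at 1.85, 1.61 and 1.48 CPM against 1.27, 0.868 and 1.21 CPM (edgeR's adjusted p = 0.575). Of 21 family members looked for, 10 were tested and 1, Ms4a6c, changed. The antisense transcript BE692007, encoded across Ms4a6c in the opposite orientation, stood at 0.640, 0.832 and 0.512 CPM in the wild-type mice and 0.0820, 0.124 and 0.0637 CPM in the knockout mice (edgeR's adjusted p = 0.135). Ms4a7, a family member of tissue macrophages, was at 4.76, 3.72 and 4.04 CPM against 3.85, 2.48 and 3.12 CPM (edgeR's adjusted p = 0.599). These last 2 genes did not pass the test. In the 10 Mb on either side of Ms4a6c, 2 of 420 other tested genes changed (0.476%), against 0.435% of all tested genes. In the 1 Mb on either side 0 of 61 did by edgeR or by DESeq2, with 6 (9.84%) at an unadjusted p under 0.05 in edgeR, against 10.5% of all tested genes.

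The test called 101 of the 23225 genes (0.435%) at an adjusted p under 0.05, 51 of them higher (0.220%) and 50 lower (0.215%) in the Ms4a6c knockout. In each of the 101 genes the knockout values lay outside the range of the wild-type values, which held for 18.3% of all tested genes. Among the 101 were 75 protein-coding genes, 15 pseudogenes and 11 other noncoding transcripts, and each of the 15 pseudogenes was higher. In edgeR, 86 of all 1616 tested pseudogenes were higher and 39 lower at an unadjusted p under 0.05. Among all tested genes, 1241 were higher and 1192 lower at this threshold. A near-identical copy elsewhere among the tested genes, meaning a same-strand match of the longest transcripts of 300 bases or more with 90% identity or more, was found for 34 of the 101 genes (33.7%) and for 16.5% of all tested genes. The absolute log2 fold change had a median of 0.715 in the 67 genes without a copy and of 2.04 in the 34 with one. When every transcript was searched in place of the longest, Rnps1, Rnps1-ps, Lamtor3 and Ms4a6c also had a copy and 63 genes did not. With wild-type mouse 1 left out, 64 genes were higher and 84 lower. Scaling by the plain library total moved the median log2 fold change of all genes to 0.181 and gave 58 higher and 10 lower genes, so the balance of directions rests on the scaling.

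**Figure D1:**
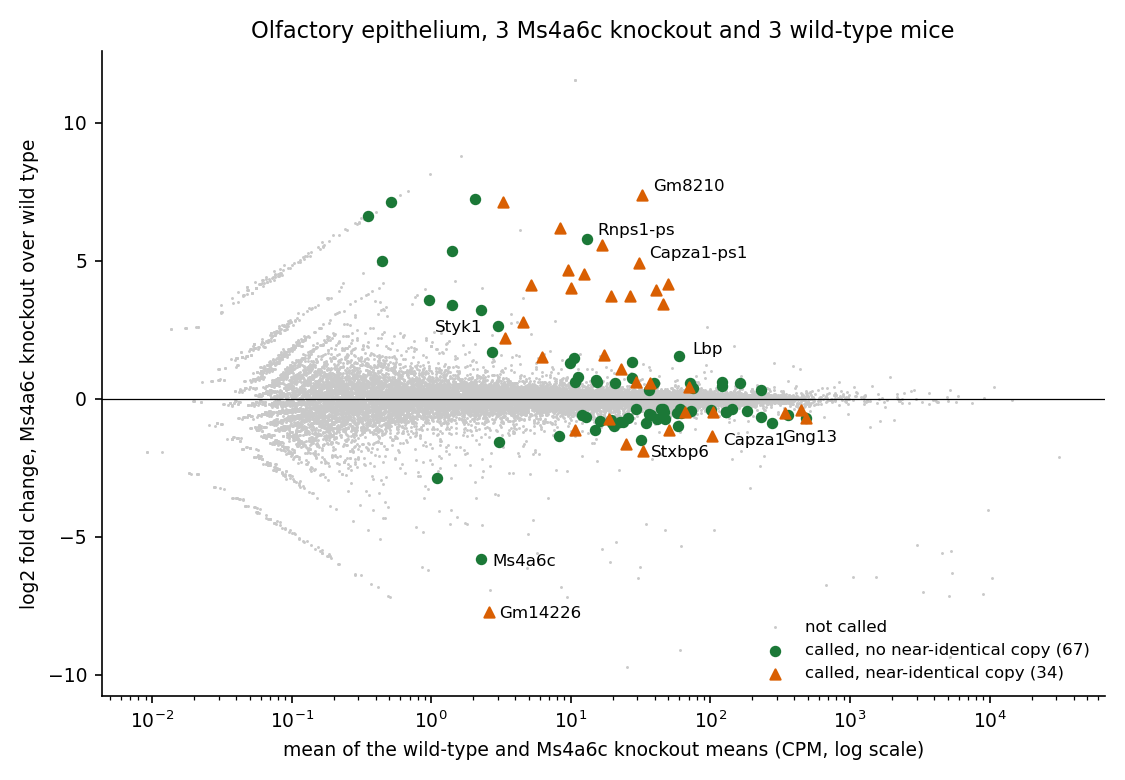
Log2 fold change of the Ms4a6c knockout over wild type (vertical axis) against the mean level of the compared groups in CPM (horizontal log axis) for the 23225 tested genes, with 3 mice per group. Grey points did not pass the test, green circles are the 67 called genes without a near-identical copy and orange triangles the 34 with such a copy. Most of the largest rises, such as Gm8210 and Capza1-ps1, belong to genes with a copy or, as Rnps1-ps, to a retrocopy that the search of longest transcripts missed, while most genes without a copy lie within 2 log2 units of 0.

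Many of the largest changes belonged to pairs of a parent gene and a near-identical copy, in which the parent fell and the copy rose. Capza1 encodes the alpha subunit of the protein that caps actin filaments. It was at 146, 149 and 151 CPM in the wild-type mice and at 61, 58.1 and 54.7 CPM in the knockout mice, while its copy Capza1-ps1 was at 2.13, 1.83 and 1.88 CPM in the wild-type mice and at 58.1, 58.9 and 60.9 CPM in the knockout mice. The wild-type and knockout mice were fully apart for both genes, in opposite directions. The log2 fold change was -1.36 ± 0.06 for Capza1 (edgeR's adjusted p = 1.19e-06) and 4.93 ± 0.10 for Capza1-ps1 (edgeR's adjusted p = 3.68e-09). The levels of the genes of the group summed together were 150.6 ± 2.65 CPM (SD, n = 3) in the wild-type mice and 117.5 ± 1.90 CPM in the knockout mice, still lower with a log2 fold change of -0.36 ± 0.04 (edgeR's adjusted p = 0.00716).

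Parent and copy in such pairs differ at few bases, and reads that cover none of these match both. Over the coding sequence, Capza1 and Capza1-ps1 differed at 3 of 857 aligned bases, Ahcy and Gm4737 at 4 of 1296, Rps7 and Rps7-ps3 at 3 of 582, Rnps1 and Rnps1-ps at 5 of 843, Vcp and Vcp-rs at 8 of 2403 and Pcna and Pcna-ps2 at 6 of 781. For 3 of these pairs, the stretch of 90 coding bases with the most differences is shown, 5′ to 3′ on the strand of the gene, with the differing bases in capitals (GENCODE transcripts, GRCm38). The parents Ahcy and Vcp span an intron here, so their coordinates cover more than 90 bases.
Ahcy, coding exons, chr2:155064898-155065597, minus strand: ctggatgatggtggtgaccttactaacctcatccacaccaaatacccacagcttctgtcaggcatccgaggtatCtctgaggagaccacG
Gm4737, chr16:46154539-46154628, minus strand: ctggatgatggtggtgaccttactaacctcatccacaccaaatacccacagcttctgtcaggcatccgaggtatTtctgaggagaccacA
Rnps1, coding exon, chr17:24420221-24420310, plus strand: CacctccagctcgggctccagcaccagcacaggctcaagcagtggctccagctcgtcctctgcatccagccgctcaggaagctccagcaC
Rnps1-ps, chr6:7983124-7983213, minus strand: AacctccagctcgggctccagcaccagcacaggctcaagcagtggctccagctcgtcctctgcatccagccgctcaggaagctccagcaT
Vcp, coding exons, chr4:42983520-42984336, minus strand: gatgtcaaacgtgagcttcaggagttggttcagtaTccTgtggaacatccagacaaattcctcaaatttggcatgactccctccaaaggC
Vcp-rs, chrX:104346696-104346785, minus strand: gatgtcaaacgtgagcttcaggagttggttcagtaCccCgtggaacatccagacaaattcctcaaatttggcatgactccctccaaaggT

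Ahcy, the enzyme that removes S-adenosylhomocysteine in the methionine cycle, showed the same form. Ahcy was at 36.8, 37.7 and 37.8 CPM in the wild-type mice and at 12.5, 12.0 and 11.6 CPM in the knockout mice, and Gm4737, a copy annotated as protein-coding, at 0.213, 0.832 and 0.967 CPM against 33.2, 34.0 and 31.8 CPM. Both genes separated the groups without overlap, Ahcy by a log2 fold change of -1.64 ± 0.07 (edgeR's adjusted p = 2.62e-06) and Gm4737 by 5.55 ± 0.29 (edgeR's adjusted p = 9.91e-06). The sum over the copies, 38.41 ± 1.03 CPM in the wild-type and 45.11 ± 1.44 CPM in the knockout mice (SD, n = 3), did not pass the test (log2 fold change 0.23 ± 0.06, edgeR's adjusted p = 0.214). Rnps1, a factor of the exon junction complex, fell from 73.9, 79.8 and 80 CPM to 40.3, 39.1 and 40.1 CPM, while Rnps1-ps rose from 0.355, 0.444 and 0.569 CPM to 26.9, 24.7 and 25.3 CPM (edgeR's adjusted p = 4.20e-05 and 4.09e-05). Summed per mouse, both together stood at 74.3, 80.2 and 80.6 CPM in the wild-type mice and at 67.1, 63.8 and 65.4 CPM in the knockout mice. The groups did not overlap, but lay closer than for Rnps1 alone, and the sum was not tested. Vcp, an ATPase that extracts ubiquitylated proteins from complexes and membranes, was at 514, 511 and 497 CPM against 393, 384 and 362 CPM, and Vcp-rs at 5.05, 5.05 and 4.78 CPM against 81.3, 79.2 and 70.4 CPM. The groups did not overlap for either gene, but the fall of Vcp passed in 6 of the 16 alternative fits and was lost on leaving out any of the 6 mice, whereas the rise of Vcp-rs passed in all 16. The sum of Vcp and Vcp-rs did not pass (edgeR's adjusted p = 0.309).

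The translation initiation factor genes Eif3j1 and Eif3j2, the splicing factor genes Mfap1a and Mfap1b, and the chromatin protein gene Hmgb1 with its copies gave the remaining opposed pairs, so that 8 of the 13 pairs with both members called moved in opposite directions. Eif3j1 was at 63.9, 45.1 and 45.2 CPM in the wild-type and 14.4, 14.5 and 12.7 CPM in the knockout mice, and Eif3j2 at 8.60, 8.71 and 8.59 CPM against 26.4, 26.4 and 25.6 CPM. The sum of these genes did not pass the test (log2 fold change -0.58 ± 0.16, edgeR's adjusted p = 0.207). Of Mfap1a and Mfap1b, neighbours on chromosome 2, the first rose by 0.41 and the second fell by 0.49 on the log2 scale, and their sum stood at 137.5 CPM in the wild-type and 134.9 CPM in the knockout mice. Hmgb1 fell from 392, 414 and 408 CPM to 281, 294 and 268 CPM (log2 fold change -0.52 ± 0.07, edgeR's adjusted p = 0.00637), while its copies Gm15387, Gm21596 and Gm45315 rose. Gm45315 had 2 counts in the wild-type group and 359 in the knockout group. The sum of Hmgb1 and its copies remained lower in the knockout (log2 fold change -0.37 ± 0.06, edgeR's adjusted p = 0.0299).

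The other pseudogenes that rose were copies of ribosomal and housekeeping genes whose parents did not pass the test. Gm8210 and Gm13841 are copies of Rpl29, a protein of the large ribosomal subunit. Gm8210 was at 0.426, 0.555 and 0.171 CPM in the wild-type mice and at 33.5, 89.7 and 71.5 CPM in the knockout mice, and Rpl29 was at 264, 221 and 221 CPM in the wild-type mice and at 114, 23.4 and 17.6 CPM in the knockout mice. Knockout mouse 1 lay between the wild-type mice and the other knockout mice for both genes, and Rpl29, spread this widely, did not pass (edgeR's adjusted p = 0.184). The sum of Rpl29 and its copies did pass, at 241.9 ± 24.5 CPM in the wild-type and 145.1 ± 21.5 CPM in the knockout mice (SD, n = 3; log2 fold change -0.74 ± 0.12, edgeR's adjusted p = 0.0301). Rps7, a small-subunit protein, was at 407, 338 and 342 CPM against 261, 245 and 234 CPM (edgeR's adjusted p = 0.152), and Rps7-ps3 at 7.39, 7.82 and 7.85 CPM against 90.3, 81.2 and 80.2 CPM. The sum of Rps7 and its copies did not pass either (edgeR's adjusted p = 0.658). Rps2-ps10 and Rps2-ps6, copies of the small-subunit gene Rps2, rose by 4.16 and 4.10 on the log2 scale. Gm8730, a copy of the ribosomal stalk gene Rplp0, rose by 3.71, and Pcna-ps2, a copy of the DNA replication clamp Pcna, by 2.77. Gm13835, identical over 665 bases to the proteasome subunit gene Psma3, rose by 2.20, and Hist1h2al, a histone pseudogene, by 6.20. Pcna-ps2 is 1 of the 2 called genes within 10 Mb of Ms4a6c, the other being the unannotated transcript Gm37206.

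For the 34 called genes with a near-identical copy, each was summed with its direct copies and tested again, a step added after the data were seen. The sum passed for 15 of the 34 and did not pass for 19, and of the 15 sums 9 kept the direction of the gene and 6 had the opposite one. These are not separate sums, since genes with the same copies share one. The 6 opposite ones all belong to copies of Rpl29, Hmgb1 and Capza1. The planned test summed each connected group of near-identical genes into 1 row. It called 8 of 1133 such groups, 3 higher and 5 lower, and 75 of all 20533 rows. The sums that kept their direction include Acp1, a low molecular weight phosphotyrosine phosphatase, at 71.7, 69.6 and 68.4 CPM in the wild-type mice and 30.9, 31.3 and 32.4 CPM in the knockout mice (log2 fold change -1.15 ± 0.08, edgeR's adjusted p = 7.21e-05). Its copy was under 1 CPM in both groups. The same held for Cd59a, an inhibitor of the complement membrane attack complex, which fell from 15.6, 14.4 and 14.3 CPM to 7.13, 6.39 and 6.82 CPM (log2 fold change -1.12 ± 0.09, edgeR's adjusted p = 0.000255). Chp1, a calcium-binding protein, fell by 0.49 and Ganc, an alpha-glucosidase, rose by 0.58. The long noncoding RNA Miat rose from 2.13, 4.27 and 4.61 CPM to 66.9, 43.9 and 37.9 CPM (log2 fold change 3.73 ± 0.30, edgeR's adjusted p = 0.000243), and Gm20632, an antisense transcript of the histone cluster on chromosome 3, rose by 1.09. The levels and statistics given for these genes, from Acp1 to Gm20632, are those of each gene alone. For the sums, edgeR's adjusted p was 0.000337 for Acp1, 0.000625 for Cd59a and 0.000719 for Miat. Gm14226, near Ahcy on chromosome 2, had 261 counts in the wild-type group and 1 in the knockout group. Eme2, an endonuclease subunit, fell by 0.73, but its sum did not pass. The noncoding Gm7292 rose by 4.00 and the histone gene H3c15 by 0.62, and their sums did not pass. Of the genes with a copy, Vcp, Mfap1a, Mfap1b, Hmgb1, Ganc, H3c15, Gm13835 and Gm15387 lost their call without 1 or more mice.

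**Figure D2:**
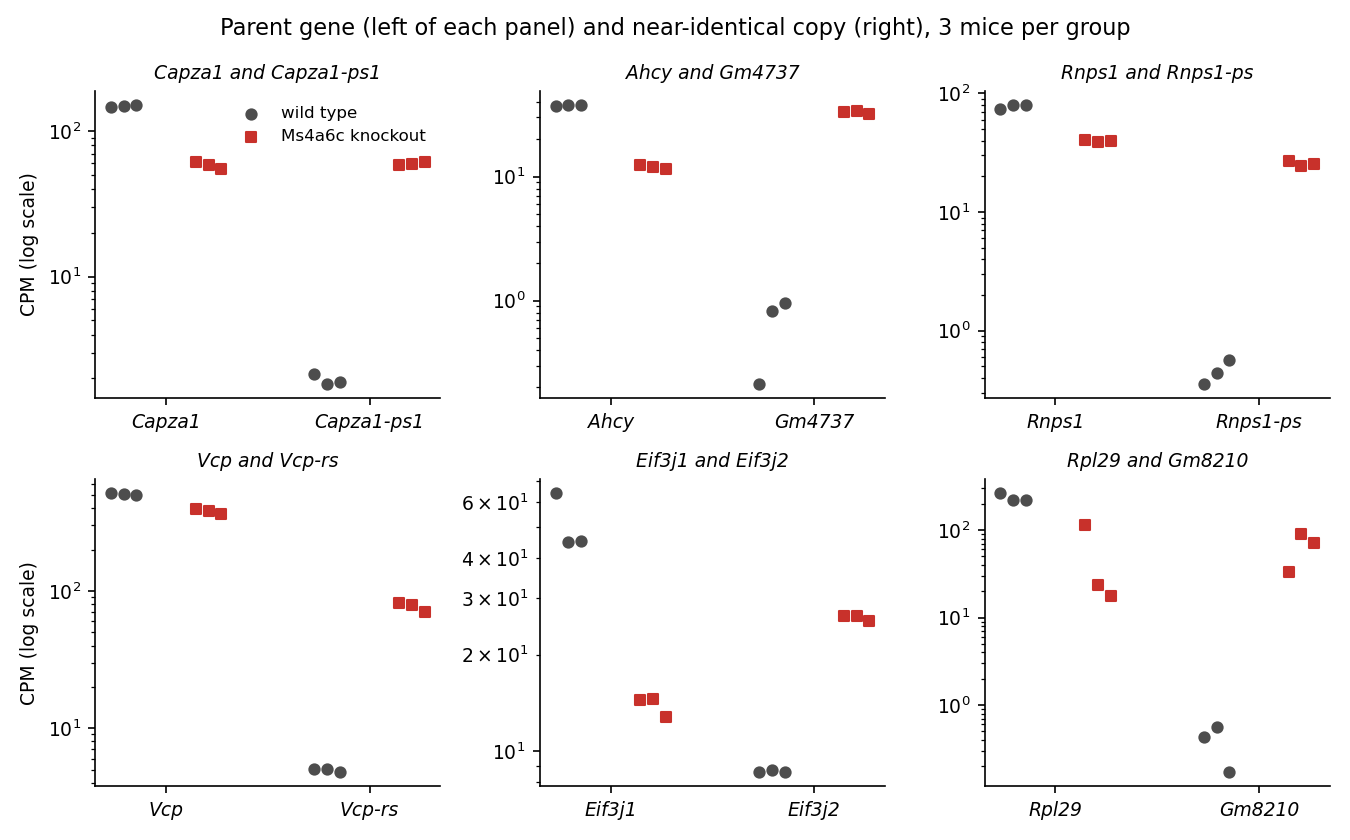
Level in each mouse (CPM, log axis, a different range in each panel) of 6 parent genes, at the left of each panel, and a near-identical copy of each, at the right, in 3 wild-type (grey circles) and 3 Ms4a6c knockout mice (red squares). In every panel the parent lies lower and the copy higher in the knockout, and in the Rpl29 and Gm8210 panel knockout mouse 1 (the leftmost square) lies between the wild-type mice and the other knockout mice.

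The called genes without a near-identical copy were not spread evenly over the genome. Chromosomes 2, 3, 12 and 17, singled out after the counts were seen, held 43 of the 58 called protein-coding genes without a copy (74.1%) and 21.3% of the protein-coding genes tested. On these 4 chromosomes 1.3% of such genes were called, against 0.122% (15 of 12251) on all others and 0.373% overall. At an unadjusted p under 0.05 in edgeR, the share was 18.3% on chromosome 12, 16.3% on 3 and 15.7% on 2. On chromosome 17 it was 10.8%, against 11.1% over all chromosomes. Of the 66 called genes without a copy other than Ms4a6c, 42 lay in 11 runs in which neighbouring called genes were at most 5 Mb apart. The run chr12:24974925-28750472, held 4 called genes among 14 tested, namely Kidins220 and Id2 (lower) and Adi1 and Trappc12 (higher). On the same chromosome, chr12:35925620-36004087 held only Agr3 (lower) and Agr2 (higher), and chr12:51348061-54203860 held 4 among 13, with G2e3, Coch and Ap4s1 lower and Egln3 higher. The longest run, chr2:118663303-130050399, held 10 among 165, of which 4 were higher and 6 lower. The run chr17:24414565-29496112 held Rnps1 (with a copy when all transcripts are searched), Gng13 and Decr2 (lower) and Meiob and Pim1 (higher) among 164. Of the 11 runs, 9 held both higher and lower genes. The 24 genes outside the runs comprised 10 higher and 14 lower genes. Some lay on the chromosomes singled out above, namely Stxbp6, Snapc1 and Rdh14 on 12, Camk2d on 3 and Ptgds on 2. Others were Scel on chromosome 14 and Styk1 and Mest on 6. None of the 11 runs lay on chromosome 19, which carries Ms4a6c. Runs were counted from genes without a copy only, and called genes with a copy also lay within some of them. Chp1, Ganc, Mfap1a, Mfap1b and Eif3j1 lay within the longest run, and Ahcy and Gm14226 within the run chr2:152337422-158332852. Eme2 lay within the run on chromosome 17, and H3c15 and Gm20632 within the run chr3:96221119-96466924. Miat overlaps the start of the run on chromosome 5. Capza1 on chromosome 3 and Acp1 on chromosome 12 lay outside the runs but within 5 Mb of one. Copy effects and position are therefore not separate for these genes. Sequence variants were not measured here, and effects of the Ms4a6c deletion and of any genomic segments that the knockout line carries from another strain cannot be told apart by these groups.

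**Figure D3:**
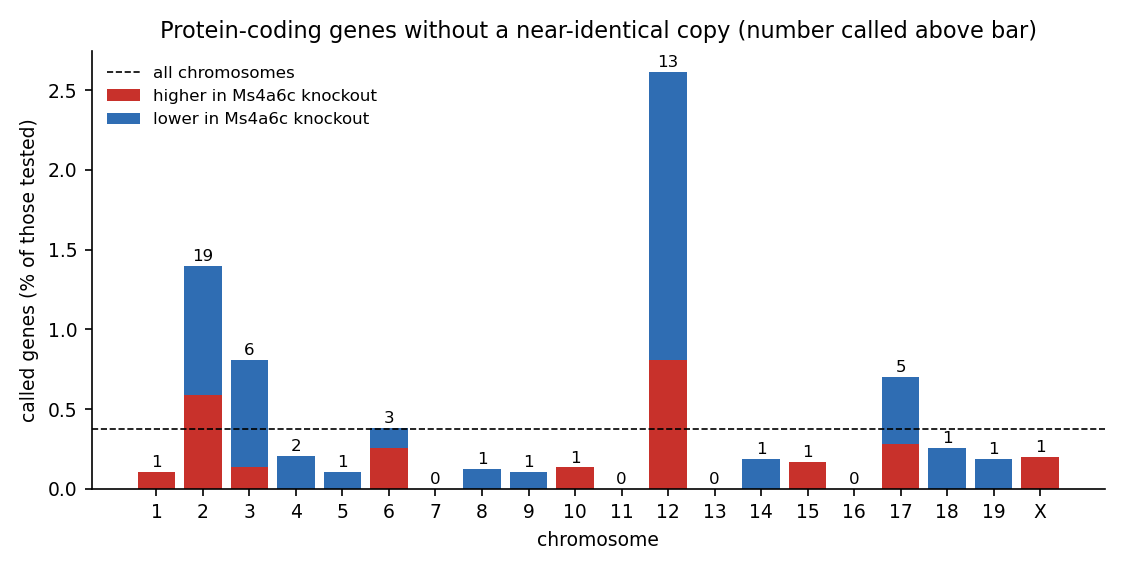
Share of tested protein-coding genes without a near-identical copy that passed the test, by chromosome, split into genes higher (red) and lower (blue) in the Ms4a6c knockout, with the number called above each bar. The dashed line is the share over all chromosomes, 0.373%. Chromosomes 12 (13 genes), 2 (19 genes), 3 (6 genes) and 17 (5 genes, Rnps1 among them) lie above it. Chromosome 6 (3 genes, 0.381%) lies just above it.

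The called protein-coding genes without a copy were sorted by known function after the calls were seen, so the direction within a group is no evidence about the function, and runs and groups share genes. Of the called genes, 7 are known from neuronal or calcium signalling, and these were lower in the Ms4a6c knockout, while kinases that rose are described below with other signalling genes. Of the 7, 4 lay in chromosome runs and 1, Stxbp6, passed in all 16 alternative fits. Gng13 encodes the G protein gamma subunit that works with Gnal downstream of odorant receptors. It was at 348, 371 and 359 CPM in the wild-type mice and at 179, 198 and 203 CPM in the knockout mice. All knockout mice lay near 54% of the wild-type level (53.8%), with a log2 fold change of -0.89 ± 0.09 (edgeR's adjusted p = 0.00121). Stxbp6 (amisyn), which binds syntaxin and restrains membrane fusion, was at 50.9, 41.8 and 47.3 CPM in the wild-type and at 15.9, 16.4 and 17.6 CPM in the knockout mice. The groups were far apart, with a log2 fold change of -1.49 ± 0.14 (edgeR's adjusted p = 0.000542). Camk2d, a subunit of calcium/calmodulin-dependent kinase II, fell from 266, 292 and 288 CPM to 173, 181 and 181 CPM (log2 fold change -0.66 ± 0.08, edgeR's adjusted p = 0.00378). Ppp3ca, the catalytic subunit of the calcium-dependent phosphatase calcineurin, fell by 0.47, and the calcium-binding protein Necab1 by 0.51. The kinase Pak6 fell by 0.83 and Kidins220, a scaffold of neurotrophin receptor signalling, by 0.45. The last 4 genes lost their call on leaving out some mice, and passed in 8 (Ppp3ca), 9 (Necab1 and Pak6) and 11 (Kidins220) of the 16 alternative fits.

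Other components of the transduction cascade did not pass the test. Gnal was at 2154, 2478 and 2414 CPM in the wild-type and 2347, 2360 and 2316 CPM in the knockout mice, and Adcy3 at 1143, 1283 and 1235 CPM against 1336, 1248 and 1271 CPM. The groups overlapped for both genes, and the log2 fold changes were 0.00 ± 0.11 and 0.07 ± 0.11 (edgeR's adjusted p = 0.992 and 0.854). Among 20 markers of mature olfactory sensory neurons Gng13 alone changed, and the median log2 fold change of the list was 0.07, against 0.00 for all tested genes. Of 1042 odorant receptor genes tested, 2 rose and 1 fell (0.288%), against 0.435% of all tested genes. Olfr1314, on chromosome 2, was at 0.0711, 0.277 and 0.341 CPM in the wild-type and 3.07, 2.36 and 2.36 CPM in the knockout mice (log2 fold change 3.41 ± 0.43, edgeR's adjusted p = 0.00535). Olfr1278, in the same receptor cluster, fell from 12.2, 9.87 and 13.3 CPM to 2.91, 6.02 and 5.10 CPM (edgeR's adjusted p = 0.0448), and Olfr1325 on the X chromosome rose from 8.10, 8.32 and 8.53 CPM to 12.7, 13.7 and 16.6 CPM (edgeR's adjusted p = 0.0407). Olfr1314 passed in all 16 alternative fits, the other receptors in 7 each, being lost on leaving out some mice. The summed level of all odorant receptors was 6379, 6843 and 6354 CPM in the wild-type mice and 6365, 6658 and 6488 CPM in the knockout mice.

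Of 7 genes of differentiation, stress and kinase signalling, 6 rose and 1 fell. The gene that fell was Id2, which blocks basic helix-loop-helix transcription factors, at 45.9, 44.0 and 44.5 CPM in the wild-type and 22.9, 22.8 and 26.9 CPM in the knockout mice (log2 fold change -0.89 ± 0.10, edgeR's adjusted p = 0.00225). Egln3, a prolyl hydroxylase that marks hypoxia-inducible factors for degradation, rose from 5.47, 6.21 and 5.12 CPM to 15.4, 16.1 and 15.3 CPM, 2.78-fold (log2 fold change 1.48 ± 0.17, edgeR's adjusted p = 0.00286). All 3 knockout mice lay close together and far above the wild-type mice. Trib3, a pseudokinase induced by the integrated stress response, rose from 14.9, 17.1 and 15.1 CPM to 27.5, 48.2 and 42.4 CPM, with knockout mouse 1 lower than the others (log2 fold change 1.32 ± 0.19, edgeR's adjusted p = 0.0123). Its call was lost without wild-type mouse 2 or 3 or without knockout mouse 3. It was the 1 changed gene among 17 of the unfolded protein response list, whose median was -0.05. Styk1, a receptor-like kinase, rose from 0.853, 0.721 and 0.910 CPM to 6.89, 4.34 and 4.27 CPM, 6.23-fold (log2 fold change 2.64 ± 0.26, edgeR's adjusted p = 0.00112). The kinases Pim1 and Plk5 and the inositol pyrophosphate kinase Ppip5k1 rose by 0.59, 0.69 and 0.56 on the log2 scale, Pim1 and Plk5 losing their call without some mice.

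Of 9 genes of secretion, barrier and defence, 4 rose and 5 fell. Lbp, the secreted protein that carries bacterial lipopolysaccharide to its receptor, rose from 27.6, 34.2 and 29.1 CPM to 74.0, 107 and 88.7 CPM, 2.95-fold (log2 fold change 1.56 ± 0.14, edgeR's adjusted p = 0.000505), and the lowest knockout mouse lay far above the highest wild-type mouse. Agr2 and Agr3 are neighbouring genes of disulfide isomerases of secretory cells. They moved in opposite directions, Agr2 from 204, 210 and 201 CPM to 250, 251 and 260 CPM (log2 fold change 0.31 ± 0.05, edgeR's adjusted p = 0.0354) and Agr3 from 24.4, 25.9 and 23.6 CPM to 13.7, 14 and 15.2 CPM (log2 fold change -0.79 ± 0.08, edgeR's adjusted p = 0.00135). The Agr3 call held without any single mouse, while that of Agr2 was lost on leaving out each of the 6 mice. Coch, an extracellular matrix protein, fell from 394, 460 and 441 CPM to 304, 279 and 275 CPM (log2 fold change -0.59 ± 0.08, edgeR's adjusted p = 0.0123). It was the 1 changed gene among 14 markers of microvillous, tuft and ionocyte-like cells, in which the defining markers Trpm5 (8.32, 10.7 and 10.5 CPM against 9.67, 11.7 and 8.47 CPM) and Ascl3 (edgeR's adjusted p = 0.982) overlapped between the groups. Tgm3, a transglutaminase of cornified epithelia, rose from 0.853, 0.277 and 0.228 CPM to 3.12, 5.09 and 4.01 CPM, and Scel, a protein of the cornified envelope, fell from 4.76, 4.44 and 4.49 CPM to 1.76, 1.24 and 1.59 CPM (log2 fold changes 3.20 ± 0.44 and -1.56 ± 0.18, edgeR's adjusted p = 0.00953 and 0.00323). Ptgds, a prostaglandin D synthase, rose by 0.59, while the secreted protein Azgp1 fell by 0.73 and the heparan sulfate proteoglycan Sdc4 by 0.41. The calls of Coch, Tgm3, Ptgds, Azgp1 and Sdc4 were lost without 1 or more mice.

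Genes of matrix, metabolism and transport made up the next block. The collagen cross-linking enzyme Lox fell by 0.57, the secreted glycoprotein Olfml3 by 0.72 and the membrane protein Sspn by 0.66 on the log2 scale. Of 10 metabolic genes, 6 rose and 4 fell. Slc16a1, a transporter of lactate and other monocarboxylates, rose from 5.76, 5.77 and 5.63 CPM to 13.8, 13.5 and 14.8 CPM, 2.45-fold (log2 fold change 1.29 ± 0.15, edgeR's adjusted p = 0.00286), with tight values in both groups. Sqor, which oxidises hydrogen sulfide in mitochondria, rose from 21.5, 20.9 and 19.4 CPM to 35.7, 34.1 and 33.3 CPM, and Adi1, of the methionine salvage pathway, from 95.8, 99.4 and 96.5 CPM to 155, 142 and 142 CPM (edgeR's adjusted p = 0.000541 and 0.000783). Adal, an adenosine deaminase-like enzyme, rose by 0.62, Abcd2, a peroxisomal fatty acid transporter, by 0.45, and the aminopeptidase Rnpep by 0.40. Adal (chr2:121140428-121156680, plus strand) overlaps Lcmt2 (chr2:121128307-121140653, minus strand), which fell. Adal was at 12.44, 12.65 and 11.26 CPM against 16.68, 19.11 and 20.26 CPM, and Lcmt2 at 13.65, 15.37 and 14.05 CPM against 10.33, 9.305 and 8.92 CPM. Both have fractional expected counts, so they may share reads, and their sum was not tested. Decr2, a peroxisomal enzyme of unsaturated fatty acid breakdown, fell by 0.88 from 26.7, 24.1 and 25.9 CPM to 13.2, 15.6 and 12.8 CPM. Rdh14, a retinol dehydrogenase, fell by 0.69, Ivd, an enzyme of leucine breakdown, by 0.52, and Uqcc1, an assembly factor of respiratory complex III, by 0.37. In organelles and transport 1 gene rose, Trappc12 of a vesicle tethering complex, by 0.34, and 6 fell. These were Ap4s1, a subunit of the adaptor complex AP-4, from 26.8, 27.8 and 26.6 CPM to 13.5, 12.4 and 15.4 CPM, the dynactin subunit Dctn3 (-0.49), the Golgi calcium and manganese pump Atp2c1 (-0.50), Lamtor3 of the lysosomal Ragulator complex (-0.38), the autophagy protein Map1lc3a (-0.36) and Casc4 (-0.37). Of the genes of these groups, Ivd, Uqcc1, Trappc12 and Map1lc3a lost their call on leaving out each of the 6 mice, and Lox, Sspn, Adal, Abcd2, Rnpep, Atp2c1, Casc4 and Lamtor3 without some of them. Uqcc1, Trappc12 and Map1lc3a passed in 5 of the 16 alternative fits.

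Among genes of cell division, chromatin and the germ line, 4 fell and 1 rose. G2e3, a ubiquitin ligase, fell from 19.4, 20.9 and 21.1 CPM to 9.84, 8.62 and 9.43 CPM (log2 fold change -1.14 ± 0.08, edgeR's adjusted p = 0.000128). Haus2, of the augmin complex of the spindle, fell by 0.82 and Tex15, known from meiosis, by 0.44. Meiob, another meiosis gene, had 1 count in the wild-type and 49 in the knockout group, a ratio of 43.3 with a 95% counting interval of 7.42 to 1740. Its call held in 6 alternative fits. The histone gene H2bc21 fell from 574, 637 and 598 CPM to 408, 355 and 345 CPM, and around it on chromosome 3 the noncoding Gm20627, Gm20628 and Gm42743 rose and Gm43534 fell, 5 of the 12 tested genes without a copy in chr3:96221119-96466924. Gm42743 went from 1 count in the wild-type group to 228 in the knockout group. It overlaps Gm20628 on the opposite strand, so these genes may share reads. Of the called genes of RNA and iron-sulfur metabolism, Rnps1 is described above with its copy, and the other 3 fell, namely Snapc1 of the complex that activates small nuclear RNA genes (29.6, 28.0 and 28.7 CPM to 17.5, 15.9 and 15.2 CPM), the tRNA-modifying enzyme gene Lcmt2 (-0.59) and Ciao1 of cytosolic iron-sulfur assembly (-0.36). Lcmt2 overlaps Adal, described above, and may share reads with it. The imprinted gene Mest rose by 0.59 and B230118H07Rik fell by 0.54. The remaining noncoding transcripts were A730020E08Rik, higher by 0.59, Gm43335, with 3 counts in the wild-type and 162 in the knockout group, and Gm26953 and Gm37206. The last pair were at 0 in every wild-type mouse, and against the limit of 3 counts per mouse they were at least 3.82-fold and 5.57-fold higher in the knockout. Gm26953 overlaps Miat on the opposite strand and may share reads with it. Of these division, chromatin, RNA and noncoding genes, G2e3, Haus2, Rnps1, Snapc1, Gm42743 and Gm43534 kept their call without any single mouse, and the others lost it without 1 or more mice.

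**Figure D4:**
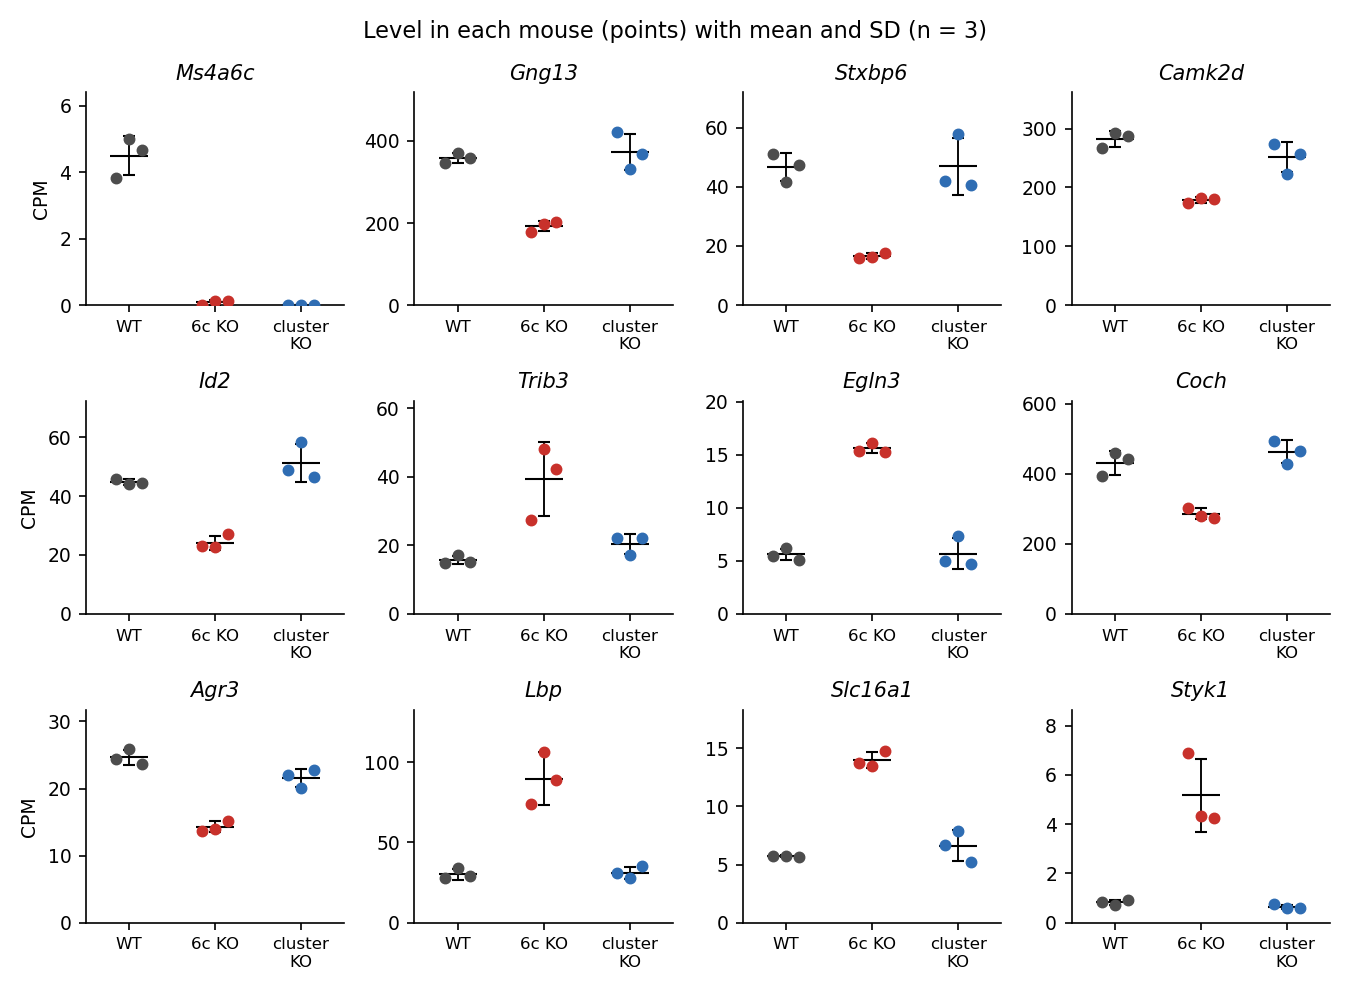
Level in CPM (vertical axis, from 0, a different range in each panel) of Ms4a6c and 11 called genes without a near-identical copy among the longest transcripts, in wild-type (WT), Ms4a6c knockout (6c KO) and Ms4a cluster knockout mice. Points are mice, the horizontal bar is the mean and the whiskers the SD (n = 3), and in all 12 panels the 3 Ms4a6c knockout mice lie outside the range of the wild-type mice.

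Across lists of cell type markers and pathways, the called genes were too few to mark any list, so the share of members at an unadjusted p under 0.05 is given beside that of all tested genes, 5.34% higher and 5.13% lower. The xenobiotic metabolism list stood out on the higher side, with 10 of 27 members higher (37.0%) and 1 lower. Cyp2a5, the cytochrome P450 of coumarin and nicotine oxidation, was at 9103, 9271 and 9138 CPM in the wild-type mice and 11890, 12860 and 11850 CPM in the knockout mice, and Cyp2g1, an olfactory-specific P450, at 4567, 4678 and 4582 CPM against 5763, 5983 and 5500 CPM. Por, the electron donor of all microsomal P450 enzymes, was at 778, 805 and 766 CPM against 945, 991 and 931 CPM. Each of these genes was higher in all 3 knockout mice, but none passed the adjusted test (log2 fold changes 0.41 ± 0.12, 0.32 ± 0.10 and 0.29 ± 0.10, edgeR's adjusted p = 0.228, 0.292 and 0.325). The summed level of the list was 28030 ± 609 CPM (SD, n = 3) in the wild-type and 33390 to 35290 CPM in the knockout mice, without overlap (exact two-sided permutation p = 0.1, the smallest that 3 mice against 3 allow). Without wild-type mouse 1, 8 of the 27 members were higher. DESeq2 called 4 members higher. The sustentacular cell list shares Cyp1a2, Cyp2a5, Cyp2f2, Cyp2g1, Gstm1, Ugt2a1 and Ugt2a2 with it, and had 5 of 16 members higher and 2 lower. Of its members outside the xenobiotic list, the keratin Krt18 was at 407, 376 and 350 CPM against 390, 376 and 370 CPM and Ermn at 128, 164 and 160 CPM against 121, 108 and 112 CPM.

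On the lower side, 10 of 26 interferon-stimulated genes (38.5%) had an unadjusted p under 0.05, and none was higher. Ifit1 was at 57.6, 48.8 and 54.6 CPM in the wild-type and 46.5, 43.4 and 41.0 CPM in the knockout mice, Ifi44 at 3.20, 3.11 and 3.24 CPM against 1.48, 2.23 and 1.66 CPM, and Oasl2 at 10.7, 11.2 and 10.2 CPM against 7.58, 6.89 and 8.41 CPM. None of the 26 passed the adjusted test of edgeR or DESeq2, and the median log2 fold change of the list was -0.39. The summed level was 382.4, 297.8 and 326.0 CPM in the wild-type and 280.2, 266.1 and 269.8 CPM in the knockout mice (exact two-sided permutation p = 0.1). Wild-type mouse 1, the gland-rich library and the only male of its group, was the highest. Without it 5 of the 26 members were lower and the median was -0.33. With Xist as a covariate 8 of the 26 were lower and 1 higher at an unadjusted p under 0.05. The mean summed levels of knockout and wild-type mice differed by -63.3 CPM. Scaled by the plain library total, they differed by -19.83 CPM (exact two-sided permutation p = 0.6), so the separation of the summed levels rests on the scaling. For MHC class I genes 5 of 20 members were lower, among them B2m (118, 98.1 and 127 CPM against 85.6, 72.3 and 85.1 CPM), and 2 of 20 without wild-type mouse 1. Of 18 macrophage markers 4 were lower and 1 higher. Their summed level was 559.2, 385.4 and 387.5 CPM against 377.7, 355.3 and 394.4 CPM, which overlap. The part of macrophage content and of the gland-rich library in the lower interferon and MHC class I levels was not tested. Of 101 nuclear genes of oxidative phosphorylation 10 were lower and 1 higher, with a median of -0.07. Of connective tissue markers, 4 of 12 bone and cartilage genes and 3 of 10 fibroblast genes were lower at an unadjusted p under 0.05, and 6 of 12 and 5 of 10 without wild-type mouse 1. None passed the adjusted test of edgeR, and DESeq2 called 2 fibroblast genes lower. The bone and cartilage list summed to 2672, 5646 and 7098 CPM in the wild-type mice and 3827, 2535 and 2866 CPM in the knockout mice, which overlap, and the fibroblast list to 1104, 1313 and 1371 CPM against 1104, 1088 and 1099 CPM. The part of connective tissue content in the lower levels of Lox and Olfml3 was not tested.

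**Figure D5:**
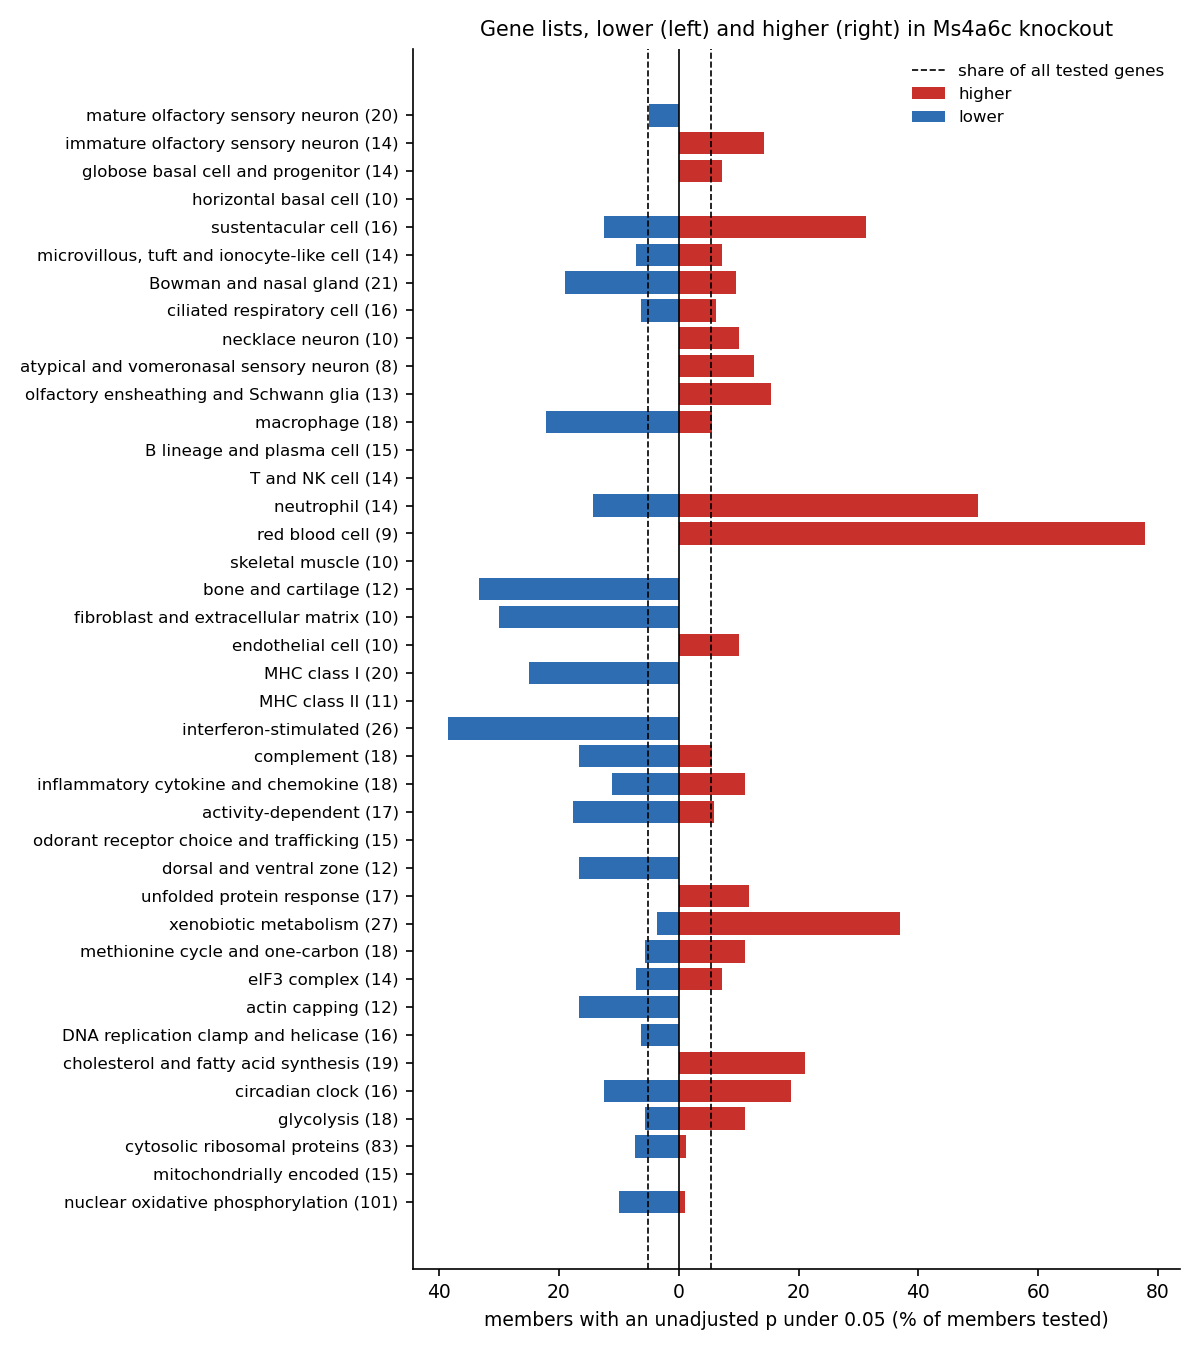
Share of the tested members of each gene list (number in brackets) with an unadjusted p under 0.05 in the Ms4a6c knockout, lower to the left in blue and higher to the right in red, in percent. Dashed lines mark the shares among all 23225 tested genes, 5.13% lower and 5.34% higher. The longest bars are the red blood cell and neutrophil lists on the higher side, followed by the xenobiotic list (37.0%), and the interferon-stimulated list (38.5%) on the lower side.

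Blood cell lists were uneven among the knockout mice. Red blood cell genes had 7 of 9 members higher at an unadjusted p under 0.05, but their summed level was 837.5, 1094 and 857.5 CPM in the wild-type mice and 994.2, 2135 and 2553 CPM in the knockout mice, so knockout mouse 1 lay within the wild-type range. Hba-a1, an alpha globin, was at 145, 202 and 149 CPM against 190, 463 and 555 CPM, and the neutrophil granule enzyme gene Mpo at 3.62, 3.88 and 2.39 CPM against 3.32, 12.5 and 17.1 CPM. Of 14 neutrophil markers 7 were higher and 2 lower, and their summed level of 537.2, 483.6 and 323.0 CPM against 263.0, 397.5 and 458.6 CPM overlapped between the groups. With the neutrophil list as a covariate, 63 genes were called in place of 101. Necklace neuron markers summed to 943.0, 973.9 and 974.3 CPM in the wild-type and 978.6, 954.1 and 1010 CPM in the knockout mice, with 0 of 10 members called by edgeR or DESeq2 and 1, Car2, at an unadjusted p under 0.05. The guanylate cyclase Gucy2d, which defines these neurons, was at 2.63, 2.38 and 1.93 CPM against 1.64, 1.74 and 2.68 CPM. Markers of basal cells, immature neurons, ciliated cells, glia, B, T and endothelial cells held 1 called gene in all, Trib3, and the MHC class II, cytokine, clock and glycolysis lists none, while DESeq2 called 1 further glial gene and 2 of glycolysis. Wild-type mouse 1 was both the gland-rich library and the only male wild-type mouse. Without it, 7 of 14 markers of immature neurons were lower at an unadjusted p under 0.05, against 0 with it. Of 15 markers of B lineage and plasma cells 6 were higher without it, against 0 with it. With all mice and Xist as a covariate, these counts were 0 and 2. Early genes of neuronal activity had 3 of 17 members lower and 1 higher, with Fos at 6.40, 9.49 and 8.70 CPM against 6.07, 2.85 and 3.06 CPM, again with knockout mouse 1 nearest to the wild-type mice (edgeR's adjusted p = 0.385).

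Genes known to vary between laboratory strains and C57BL/6 substrains showed a mosaic among the mice, with 0 of 11 called by edgeR, 1 called by DESeq2 and 4 at an unadjusted p under 0.05. Nnt, a mitochondrial transhydrogenase with a deletion in the C57BL/6J substrain, was at 13.3, 7.27 and 7.51 CPM in the wild-type and 13.9, 12.0 and 15.7 CPM in the knockout mice. Wild-type mouse 1 lay within the knockout range (edgeR's adjusted p = 0.361). Ide, the insulin-degrading enzyme, was at 131, 119 and 110 CPM in the wild-type mice and 128, 259 and 251 CPM in the knockout mice, and its neighbour Fgfbp3 at 6.54, 8.04 and 7 CPM against 9.06, 18.1 and 18.5 CPM. For both, knockout mice 2 and 3 lay far above every wild-type mouse while knockout mouse 1 lay within or just above their range (edgeR's adjusted p = 0.235 and 0.265). Knockout mouse 1, also the only female of its group, thus differed from its group at Ide, Fgfbp3, Rpl29 and Gm8210. Without it 62 genes were higher and 57 lower.

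The Ms4a cluster knockout mice, compared with the same wild-type mice, had 6 called genes (0.0258%). As both comparisons share these controls, the levels are given side by side. For Gng13, Stxbp6, Id2 and Egln3 the cluster knockout mice were at 421, 332 and 367 CPM, 42.0, 57.9 and 40.6 CPM, 48.7, 58.4 and 46.3 CPM, and 5.01, 7.38 and 4.66 CPM, and for Capza1-ps1 at 2.35, 1.99 and 2.06 CPM. Genes for which both knockout groups lay outside the wild-type range include Ptgds, at 169, 194 and 177 CPM in the cluster knockout against 129, 145 and 118 CPM in the wild-type and 206, 194 and 189 CPM in the Ms4a6c knockout mice. Necab1 was at 58.1, 51.6 and 53.6 CPM in the cluster knockout, 67.9, 74.2 and 75.4 CPM in the wild-type and 54.0, 50.9 and 47.7 CPM in the Ms4a6c knockout mice, and Gm37206 at 1.15, 1.3 and 0.752 CPM, 0 in all 3 wild-type mice, and 0.492, 1.43 and 1.15 CPM. Ptgds, Necab1 and Gm37206 did not pass in the cluster comparison (edgeR's adjusted p = 0.476, 0.321 and 0.234). The Ms4a6c knockout alone lay outside the wild-type range for 18.3% of all tested genes, and the share for both groups was not counted.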

How the data were processed

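RNA-seq of dissected main olfactory epithelium was analysed for 3 wild-type, 3 Ms4a6c knockout and 3 Ms4a cluster knockout mice, grouped and numbered by the sample labels. Directional libraries of poly-A RNA were made by the authors, who aligned reads with STAR (submitters' processing notes, 2.6.1) and deposited RSEM (1.3.1) expected counts per gene on mm10 (GRCm38) without normalization. RSEM divides reads that match several genes among them by probability, so levels of near-identical genes depend on that division.

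After rounding of the deposited expected counts and removal of genes under 10 summed counts, 23225 genes entered edgeR 4.0.16 and its quasi-likelihood test (R 4.3.3, TMM scaling, 1 model of 9 mice, Benjamini-Hochberg adjustment over all genes, threshold 0.05). Each SE was taken as the absolute log2 fold change over the root of the F statistic. On simulated counts for this comparison over 23225 genes, 70 of 100 genes given a 2-fold and 95 of 100 given a 4-fold change were called, with 10 unchanged genes called. Depth was 13954591 to 21987174 expected counts per mouse. Intervals and limits cover counting error only, since reads carry no molecular identifiers. Labels do not say more of the replicates than separate mice.

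Copies were found with megablast (BLAST 2.17.0) and coordinates and sequences taken from GENCODE M21 of the same build, in which 99.6% of deposited genes matched by transcript. Libraries were stranded, but whether counting used strand is not given in the sources used here. Ms4a6c and BE692007 may therefore share reads, as may Adal and Lcmt2, Miat and Gm26953, and Gm20628 and Gm42743, which overlap on opposite strands. Named genes are the Ms4a family, called genes, parents and copies, and members of 48 gene lists. The members, the lists and the rules were chosen with earlier results of these data known. Alternatives were DESeq2 1.42.0 and its size factors, plain library size, edgeR's default filter and none, the compared genotypes alone, a replicate block, Xist, gland and neutrophil levels as covariates, leaving out each mouse, a threshold of 0.01 and, added after seeing the data, sums with direct copies, a search of all transcripts and list counts without wild-type mouse 1. The values of 1 called gene are not reported here.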

Additional observations from a re-analysis of the deposited data

How the results depend on the processing

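The 101 calls held their direction in every alternative fit that gave a value (16 for each gene but Meiob, with 15, and Gm26953, with 14), though sums with direct copies turned 6 of them, and 30 held their significance in all 16 alternative fits, with a further 22 lost only under plain library size. Leaving out a mouse gave 29 to 64 higher genes, 27 to 84 lower genes and 30 to 104 genes without a copy, and 49 of the 101 calls were lost without at least 1 mouse. The number of genes called without wild-type mice 1, 2 and 3 was 148, 59 and 60, and without Ms4a6c knockout mice 1, 2 and 3 it was 119, 68 and 66. DESeq2 called 161 higher and 182 lower genes, 251 of them without a copy. No filter on low counts gave 87, 95 and 121, and an adjusted p under 0.01 gave 29, 29 and 31. Plain library size gave 10 lower genes and 31 without a copy, and the neutrophil covariate 29 lower and 33 without a copy. The replicate block gave 32 lower genes and 37 without a copy. Same-numbered wild-type and knockout mice did not deviate together (correlations of -0.0618, -0.0418 and 0.0136 over 16537 genes, against -0.124 to 0.126 for differently numbered mice). With 3 mice per group, these correlations cannot decide whether mice were paired by litter or batch. The cause of these shifts was not tested. At this depth, genes such as Meiob, Gm26953 and Gm37206 rest on few counts, and the simulation recovered fewer of the 2-fold than of the 4-fold changes.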
